A study of Mus musculus with 40 samples.

Results

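The question put to thigh muscle here was whether a son's response to a high fat diet differed with what his dam had eaten. The interaction of maternal and offspring diet was taken as the contrast (HF_HF - LF_HF) - (HF_LF - LF_LF) on log2 intensities, which equals the response to the high fat diet in sons of HF dams minus the response in sons of LF dams. It entered all 40 arrays of the series, and its members were all genes named in the probe table, 16593 genes on 23978 of the 25697 probes. A probe was tested where 20 or more of the 40 arrays had it above their own median intensity, leaving 12467 probes and 8690 named genes. A positive interaction means that the difference between HF and LF after weaning was more upward, or less downward, in sons of HF dams than in sons of LF dams, and a negative one the reverse.

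The animals were males of the C57BL/6J strain, which the labels write C57BL\6, killed at 9 weeks of age after a fast, with 1 array of total thigh muscle RNA per mouse. The dams' diet, given from before mating until weaning, was either low in fat (LF) or high in fat (HF), and each son then ate LF or HF until the end, with coconut oil as the main fat of both diets. In the group names the dam's diet comes first, and LF_LF, LF_HF, HF_LF and HF_HF held 10 mice each. The mice came from 12 cages, 6 per maternal diet, so that each cage had only 1 maternal diet, whereas 5 cages held sons on both post-weaning diets. The dam's diet covered the time before mating, gestation and lactation together, and these cannot be told apart. As the tissue was whole muscle, fewer cells of a type and less RNA per cell cannot be told apart either.

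The arrays were those of skeletal muscle: the mean signals of 12 markers, from the glycogen phosphorylase Pygm to the enolase Eno3, lay at percentile 97.5 or above of all tested probes. The dim, untested probes split the arrays into 2 sets with no counterpart in the labels. Tested probes differed between the sets too, 3498 of 12467 at an adjusted p below 0.05 in a limma fit with group. Set 1 held 17 arrays (LF_LF 2, LF_HF 4, HF_LF 6, HF_HF 5) and set 2 the other 23, and 10 of the 12 cages had mice in both. LF_LF replicates 2 and 5 were high in lymphocyte markers and LF_HF replicate 6 was high in macrophage markers, with scores (mean log2 deviation of the markers from all arrays) of 1.72, 2.44 and 1.37. For several of the lists and genes described, values within a set or without these arrays, or their range over alternative fits, are given beside the result.

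Skeletal muscle meets a fatty diet chiefly by burning more fat. Fatty acids and their derivatives bind the nuclear receptors of the PPAR family, which raise genes for the uptake, activation and oxidation of fatty acids in mitochondria and peroxisomes. The fibres themselves are surrounded by a connective tissue of collagens, elastin and microfibrils that fibroblasts make, and slow fibres, which are rich in mitochondria, use more fat than fast ones. A maternal diet could in principle change the setting of any of these, and the interaction contrast is the direct measure of whether the response to the later diet differed.

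No probe reached an adjusted p below 0.05 for the interaction (0 of 12467 probes, 0%; limma with Benjamini-Hochberg adjustment). The smallest adjusted p was 0.162, for Tppp3, and the next was 0.908. Unadjusted, 647 probes had a p below 0.05, 5.19% of those tested, of which 332 were positive and 315 negative, and 127 (1.02%) had a p below 0.01. For genes by their brightest probe, 225 of 8690 (2.59%) were positive and 221 (2.54%) negative at an unadjusted p below 0.05. The p-values were thus spread almost evenly, whereas those of both responses to the post-weaning diet piled up near 0.

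**Figure D1:**
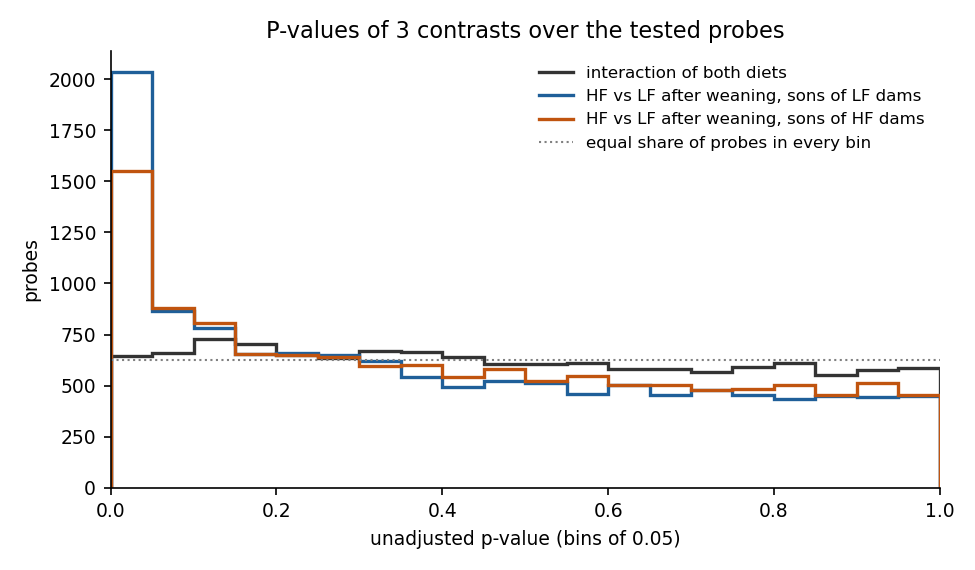
The number of probes in each bin of the unadjusted p-value is plotted for the interaction and for the HF minus LF difference in sons of LF dams and in sons of HF dams (12467 probes, 20 bins of 0.05). The lowest bin holds 647 probes for the interaction, near the dotted line of an equal share, against 2037 and 1548 for the post-weaning differences.

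The number of probes called differed between sons of LF and of HF dams, and the interaction is the test of that contrast gene by gene. In the same fit of 40 arrays, the HF diet after weaning was called for 444 probes in sons of LF dams (3.56%; 267 higher and 177 lower on HF) and for 85 probes in sons of HF dams (0.682%; 47 higher and 38 lower). The dam's diet was called for 9 probes in sons on LF (0.0722%) and for 5 in sons on HF (0.0401%). A count of 444 beside 85 is not a test of a difference between the responses, and the test of that difference called 0 probes. Moreover, leaving out a single cage with all its arrays could lower the counts: without cage 11 the first was 70 and without cage 23 the second was 6. With all arrays kept and cage as a random block they were 440 and 87.

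The precision of the contrast sets what could be seen. Its median standard error was 0.08 on the log2 scale, 1.41 times that of a single response, because it takes the error of 4 group means. At that standard error an interaction of 0.44, a difference between the responses of 1.36-fold, was needed for a single call. The 95% confidence interval of the interaction lay within 1 log2 unit of 0 for 99.3% of probes and within 0.5 log2 units for 93.5%, and extended a median of 0.17 to either side of the estimate. Interactions above 1 log2 unit therefore lay outside the interval for most probes, while one as small as the median absolute response in sons of LF dams (0.06) was not detectable here.

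The leading gene was Tppp3, which encodes a tubulin polymerization-promoting protein that binds microtubules (probe ILMN_2655929). Its intensity in LF_LF had a lowest, median and highest value of 223, 247.2 and 288.1, and in LF_HF of 245.8, 310.1 and 387.6. In sons of HF dams the values were 257.9, 298 and 403.3 on LF and 244.4, 266.1 and 286.6 on HF. Sons of LF dams were thus higher on HF and sons of HF dams lower on HF, with overlap between the groups in both cases. The log2 response was 0.31 ± 0.07 (SE) in sons of LF dams (adjusted p = 0.0066) and -0.17 ± 0.07 in sons of HF dams (adjusted p = 0.262). The interaction was -0.48 ± 0.10 (unadjusted p = 1.3e-05, adjusted p = 0.162). Read by the dam's diet, the HF dam went with a value 0.27 higher in sons on LF and 0.21 lower in sons on HF (log2 differences of 0.27 and -0.21). The interaction was -0.53 within array set 1 and -0.38 within set 2. It was called without LF_HF replicate 1 (-0.51, adjusted p = 0.0287) and without cage 11 (-0.56, adjusted p = 0.0424), and in no other case of leaving out a single array or cage.

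Tfrc, the transferrin receptor that carries iron into cells, had a negative interaction on both of its probes. On the probe ILMN_2619848 the lowest, median and highest intensities were 993.3, 1205 and 1511 in LF_LF, and 1309.7, 1582 and 2138 in LF_HF. They were 947.3, 1188 and 1460.4 in HF_LF, and 845.3, 1191 and 1505 in HF_HF. The LF_HF arrays stood high, with overlap, and the other 3 groups shared nearly the same range. The response was 0.48 ± 0.09 in sons of LF dams (adjusted p = 0.00276) and 0.02 ± 0.09 in sons of HF dams (adjusted p = 0.964), and the interaction -0.46 ± 0.13 (unadjusted p = 0.00139, adjusted p = 0.908). The other probe gave -0.46 ± 0.14. Over 17 alternative fits, those within each array set among them, the first probe ran from -0.82 to -0.39. With cage as a fixed term, which compares sons within their cages, the first probe gave -0.82 (adjusted p = 0.0287). Both Tfrc probes were called there, the only 2 calls of that fit, and the cages with both diets that carry this estimate were 2 of LF dams and 3 of HF dams.

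Vldlr, the receptor for very low density lipoproteins and thus a route of fat into muscle, had a positive interaction on 5 of its 5 probes. On the brightest of them (ILMN_2796472) the lowest, median and highest intensities were 3487, 4101 and 4736 in LF_LF and 2966, 3562 and 3952 in LF_HF. In HF_LF they were 3434, 3842 and 4369.6, and in HF_HF 3589, 4285 and 4752. The groups overlapped in each pair. The receptor was lower on HF in sons of LF dams (log2 difference -0.22 ± 0.06, adjusted p = 0.0324) and 0.10 ± 0.06 higher in sons of HF dams, which was not called (adjusted p = 0.516). The interaction of this probe was 0.32 ± 0.09 (unadjusted p = 0.000579, adjusted p = 0.908), and the 5 probes ranged from 0.23 to 0.33. Within array set 1 it was 0.47 and within set 2 0.18.

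Dhdh, a dihydrodiol dehydrogenase, had the smallest p-values among positive interactions. Its probe ILMN_2971314 had a lowest, median and highest intensity of 167.5, 192.2 and 206.7 in LF_LF, and of 133.9, 152.5 and 182.7 in LF_HF. In HF_LF these were 140.9, 172.1 and 198.5, and in HF_HF 144.6, 170.6 and 221.7. The enzyme's signal fell on HF in sons of LF dams (log2 difference -0.31 ± 0.07, adjusted p = 0.00639), with groups that overlapped, and differed by 0.07 ± 0.07 in sons of HF dams (adjusted p = 0.708). The interaction was 0.38 ± 0.10 (unadjusted p = 0.000273, adjusted p = 0.908). A brighter probe of the gene gave 0.37 ± 0.10, and a dimmer one 0.09 ± 0.07. Over 17 alternative fits, those within each array set among them, ILMN_2971314 ran from 0.22 to 0.51.

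**Figure D2:**
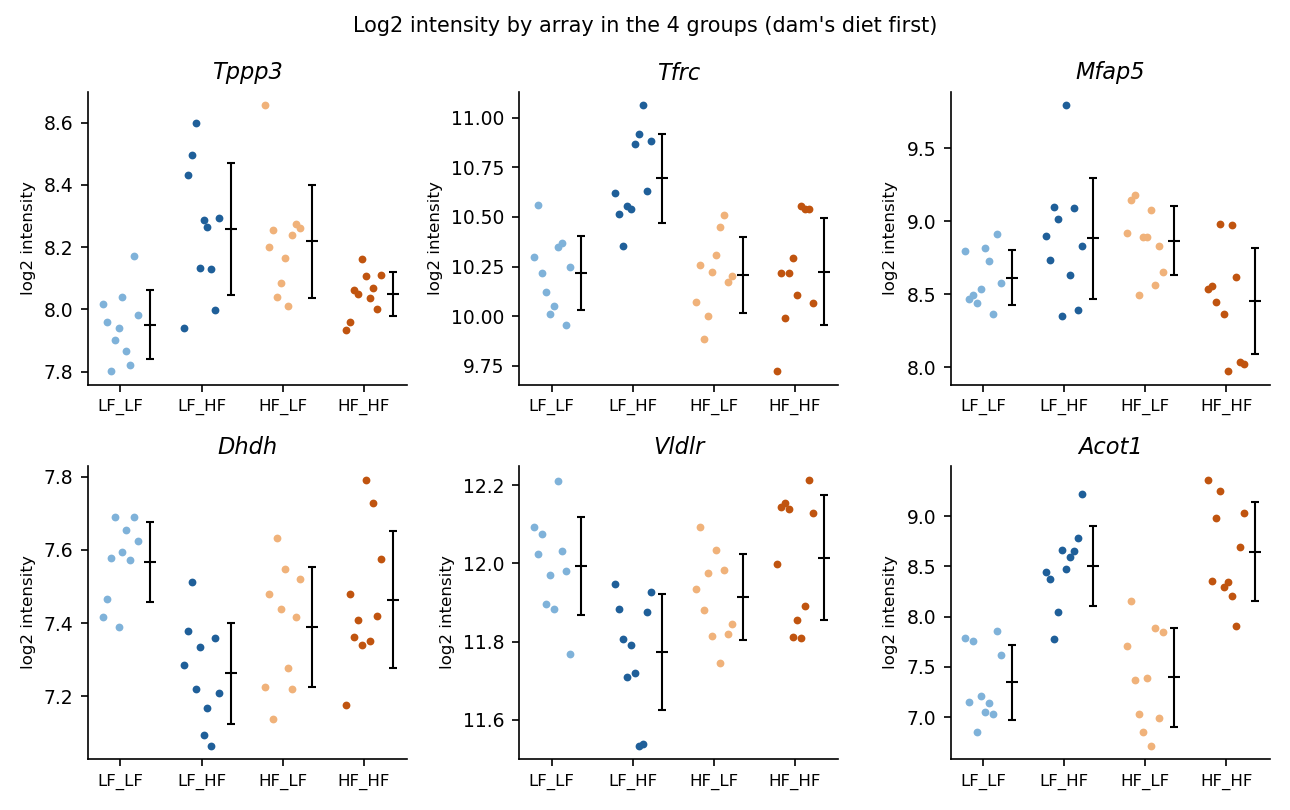
Each point is the log2 intensity of 1 array (10 per group) for 5 genes among the smallest interaction p-values and for Acot1, a gene called higher on HF whatever the dam's diet; bars give the mean and SD of the group, and the y axes do not start at 0. LF_HF stands high for Tfrc, with a median of 1582 against 1188 to 1205 and with overlap. Acot1 is higher in both HF groups.

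The other genes with the smallest p-values were of several kinds. With a positive interaction there were Samd4, an RNA-binding repressor of translation (0.40 ± 0.11), Ubr1, a ubiquitin ligase of the N-degron pathway (0.24 ± 0.07), and Ece1, the endothelin-converting enzyme (0.33 ± 0.09, and 0.22 ± 0.13 on another probe). The phospholipase Plcd3 (0.24 ± 0.07), the ubiquitin ligase Arel1 (0.25 ± 0.08), the ribosome assembly factor Las1l (0.19 ± 0.06) and the AT-hook protein Akna (0.21 ± 0.07) completed them. Samd4 was called higher on HF in sons of HF dams (0.36, adjusted p = 0.0163) and was at -0.04 in sons of LF dams. Ubr1 was called lower in sons of LF dams (-0.29) and was at -0.05 in sons of HF dams. For each of the 7 the adjusted p of the interaction was 0.908. The probe of Akna was dim, with group means of 73.22 to 83.36 where the median of all intensities was 75.7. That of Plcd3 was also dim, with group means of 87.62 to 96.89.

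Among the 12 genes leading the negative interactions was Mfap5, a microfibril protein, with a lowest, median and highest intensity of 329.8, 375.8 and 482.1 in LF_LF and 326, 465.95 and 887.2 in LF_HF. In HF_LF these were 360.4, 475.6 and 579.2, and in HF_HF 250.9, 359.7 and 504.1. The groups overlapped, and the highest value was that of LF_HF replicate 6. Its interaction was -0.68 ± 0.19 (unadjusted p = 0.000804). Others were Eln, elastin, at -0.34 ± 0.10, Col3a1, the type III collagen chain, at -1.09 ± 0.32, Plod1, a lysyl hydroxylase of collagen, at -0.21 ± 0.06, and Cd248, endosialin of fibroblasts and pericytes, at -0.28 ± 0.08 and -0.32 ± 0.14 on its 2 probes. The second probe of Col3a1 gave -0.34 ± 0.15. On its first probe Col3a1 was lower on HF in sons of HF dams (-0.90, adjusted p = 0.0487) and at 0.19 in sons of LF dams. Also among the 12 were Dcakd, which resembles a kinase of coenzyme A synthesis (-0.37 ± 0.11), the orphan receptor Mrgprf (-0.28 ± 0.08) and Fam171b (-0.26 ± 0.07). The dehydrogenase relative Dhrsx was at -0.20 ± 0.05 on 1 probe and at 0.01 ± 0.05 on the other. Ptpn12, a tyrosine phosphatase, was at -0.27 ± 0.08 on 1 of 5 probes. Its brightest probe was at -0.20 ± 0.08 (unadjusted p = 0.0258), and the others ranged from -0.10 to 0.01. The probes of Dhrsx thus did not agree, and those of Ptpn12 agreed only in part. The Ptpn12 probe at -0.27 was dim, with group means of 76.13 to 86.38 beside a median of all intensities of 75.7. So was the Cd248 probe at -0.28, with group means of 81.6 to 91.31. Dcakd rose on HF in sons of LF dams (0.44, adjusted p = 0.00075) and was at 0.06 in sons of HF dams.

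Larger but less precise interactions were those of chemokine, actin, myosin and collagen genes. The chemokine genes Ccl21a, Ccl21b and Ccl21c, near-identical copies whose signals cannot be told apart on these probes, were at 0.66 ± 0.24, 0.60 ± 0.23 and 0.62 ± 0.24. With LF_LF replicates 2 and 5 and LF_HF replicate 6 left out, Ccl21a was at 0.35. Actc1, the cardiac actin that adult skeletal muscle keeps at a low level, was at -0.96 ± 0.37 and -0.69 ± 0.23 on its probes. On the brighter probe it fell on HF in both sons of HF dams (-1.29, adjusted p = 1.65e-05) and sons of LF dams (-0.60, adjusted p = 0.0315). Myh1, the myosin heavy chain of type IIx fibres, was at -0.82 ± 0.38 and at -0.32 ± 0.38, and Col1a2, a type I collagen chain, at -0.78 ± 0.32. Within array set 1 Myh1 was at -0.06 on the first of these probes and Col1a2 at -0.36. Actb, beta actin, was at 0.54 on each of 2 probes and between -0.09 and 0.12 on the other 3. All of these had an adjusted p of 0.908 or above.

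**Figure D3:**
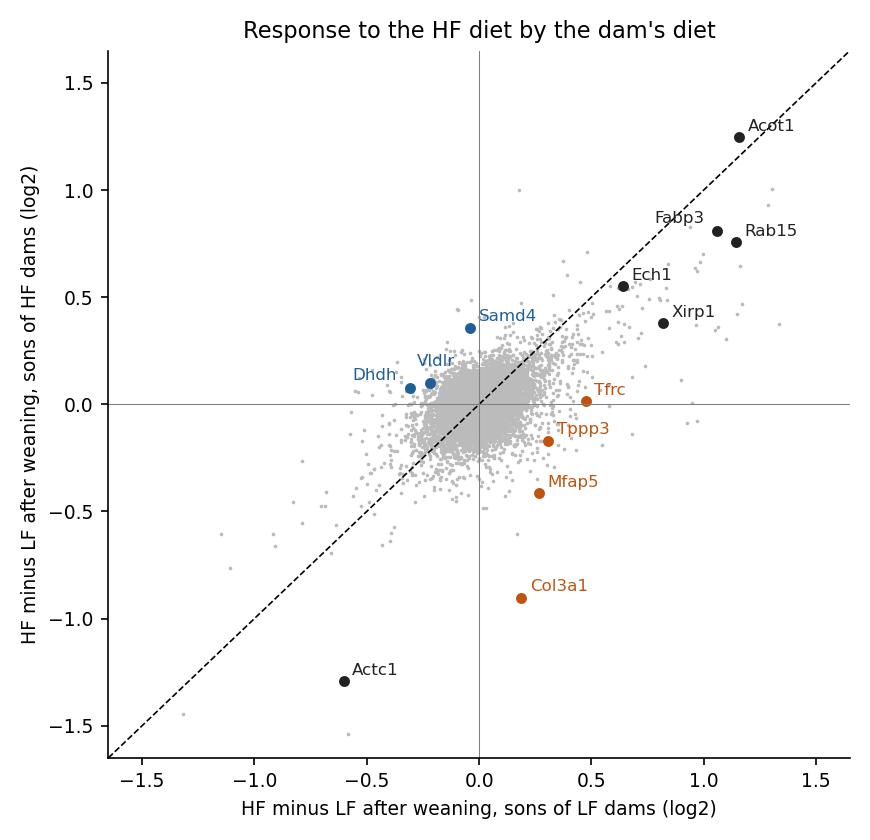
Each grey point is 1 of 12467 probes, placed by its log2 difference between HF and LF after weaning in sons of LF dams (x axis) and in sons of HF dams (y axis); the dashed line marks equal responses, and the interaction is the vertical distance from it. Named in orange and blue are genes with small interaction p-values and in black genes called in a post-weaning comparison, such as Acot1 at 1.16 and 1.25.

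Genes of fatty acid handling were called higher on HF in sons of both kinds of dam, without a called interaction. Acot1, a cytosolic acyl-CoA thioesterase, had a lowest, median and highest intensity of 115.6, 145.3 and 232.6 in LF_LF and of 219.5, 371.6 and 598.3 in LF_HF. In HF_LF they were 105.3, 166.9 and 284.5, and in HF_HF 240.3, 371.3 and 659. It rose by 1.16 ± 0.19 in sons of LF dams and by 1.25 ± 0.19 in sons of HF dams, and the interaction was 0.09 ± 0.26 with a 95% interval of -0.44 to 0.62. Within array set 2 it was -0.21. Fabp3, which carries fatty acids within muscle cells, rose by 1.06 and 0.81 (interaction -0.25 ± 0.22, and 0.06 within array set 1). Its intensities in LF_LF and LF_HF did not overlap, with a highest value of 10176 in the former and a lowest of 12216 in the latter, whereas those of HF_LF reached 11986 and overlapped HF_HF, which began at 9903. Ech1, a dienoyl-CoA isomerase of fat oxidation, rose by 0.64 and 0.55 (interaction -0.09 ± 0.13).

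Others called in sons of both LF and HF dams were Pex11a, which divides peroxisomes (0.45 and 0.41), the thioesterase Acot2 (0.45 and 0.57), Lpcat3, which remodels phospholipids (0.27 and 0.36), and the endosomal GTPase Rab15 (1.14 and 0.76). The phosphatidate phosphatase Plpp1 (0.42 and 0.28), the mitochondrial ribosomal protein Mrpl14 (0.43 and 0.26), the adhesion protein Ctnna3 (0.46 and 0.28) and the Nudix hydrolase Nudt8 (0.37 and 0.24) did the same, although further probes of Plpp1 and Lpcat3 were not called in sons of HF dams. The interactions of these 8 genes ran from -0.39 for Rab15 (unadjusted p = 0.0614) to 0.12 for Acot2, and none was at an unadjusted p below 0.05. Of the genes with the smallest adjusted p in a post-weaning comparison, 4 had an interaction at that level. They were Actc1, Xirp1, an actin-binding protein of muscle attachment sites (0.82 in sons of LF dams and 0.38 in sons of HF dams, interaction -0.44 ± 0.19), the arginine sensor Castor2 (-0.12 and -0.31, interaction -0.19 ± 0.08, and 0.12 ± 0.17 on another probe), and Grb10, an imprinted adaptor that restrains insulin signalling (-0.14 and -0.40, interaction -0.27 ± 0.11). For all 4 the adjusted p was 0.908.

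Sons of LF dams and sons of HF dams were also compared as separate sets of animals. Probes were called on the 20 arrays of 1 maternal diet alone and measured in the 20 mice of the other, with no test, since values picked for their size tend to be smaller elsewhere. The 299 probes higher on HF in sons of LF dams had a median log2 difference of 0.29 there and of 0.17 in sons of HF dams, with the same sign for 94.3%. The 222 lower probes had medians of -0.23 and -0.09, with the same sign for 86.5%. In the other direction, the 28 probes called higher in sons of HF dams had a median of 0.38 there and of 0.37 in sons of LF dams, with the same sign for all 28, and the 17 lower probes had medians of -0.37 and -0.14, with the same sign for 15. A smaller median in the other animals was therefore seen for rising probes when they were picked in sons of LF dams and not when they were picked in sons of HF dams.

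In these separate fits 521 of 12467 probes were called in sons of LF dams and 45 in sons of HF dams. Of these, 23 were called in both, 4.41% of the first list and 51.1% of the second, with 0 in opposite directions. For all probes, the fit of all arrays called 0.682% in sons of HF dams, to be set beside the 4.41%. It called 3.56% in sons of LF dams, to be set beside the 51.1%. Both shares of the lists were thus above those of all probes, although the latter come from another fit and the overlap was not tested. Over all 12467 probes the log2 differences in these separate animals had a Pearson r of 0.51 and a Spearman rho of 0.35, a description across probes that are not independent. The dam's diet gave far fewer calls, 2 in sons on LF and 0 in sons on HF (1024 and 903 probes at an unadjusted p below 0.05). The 2 probes had a median of 0.37 there and of 0.17 in sons on HF, and the r over all probes was 0.16. Sons on both diets shared cages in part, and which of them shared a mother is not labelled.

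Gene lists were described by the count and the median of their measured members, with no test of a list. Of 20 beta-oxidation genes tested (22 listed), 12 were called higher on HF in sons of LF dams, against 2.16% of all genes. In sons of HF dams 2 were called higher, against 0.403%. They included Acadm, the medium-chain acyl-CoA dehydrogenase (0.38 and 0.31), called in both comparisons on that probe, and Acaa2, the mitochondrial thiolase (0.71 and 0.51), of whose 4 probes all were called in sons of LF dams and 2 in sons of HF dams. The medians were 0.37 and 0.24, the median interaction was -0.09, and 0 of the 20 had an interaction at an unadjusted p below 0.05. That median was -0.02 with the slow fibre score as a covariate and ran from -0.19 to -0.03 when single arrays or cages were left out. Of 13 PPAR-responsive genes tested (18 listed), 6 were called higher in sons of LF dams and 5 in sons of HF dams, against the same shares of all genes. Their medians were 0.30 and 0.38, with a median interaction of 0.00 and again 0 members at an unadjusted p below 0.05.

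Mitochondrial lists leaned the same way by small amounts. Oxidative phosphorylation had medians of 0.11 in sons of LF dams and 0.04 in sons of HF dams over 67 genes. Of these, 3 (4.48%, against 2.54% of all genes) had negative interactions at an unadjusted p below 0.05. They were Ndufa9 (-0.18), Ndufb5 (-0.56) and Cox7b (-0.59), subunits of complexes I and IV. Within array set 1 Ndufb5 was at -0.05 and Cox7b at 0.04. The citrate cycle had medians of 0.11 and 0.01 (18 genes), and mitochondrial ribosomal proteins of 0.09 and 0.04 (58 genes), with 0 and 1 members at that level. For heat shock proteins and chaperones the medians were 0.21 and 0.07 over 25 genes, with 3 negative members at that level (12%, against 2.54% of all genes). They were the chaperones Hsp90aa1 (-0.25), Dnajb4 (-0.43, and 0.00 on another probe) and Hspa5 (-0.23). Within set 1 these were at -0.06, -0.14 and -0.05. The probes of Hsp90aa1 and Hspa5 were dim, with group means of 70.69 to 79.25 and of 78.55 to 92.26, where the median of all intensities was 75.7. The median interaction of these 4 lists was between -0.05 and -0.14, against 0.01 for all genes.

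**Figure D4:**
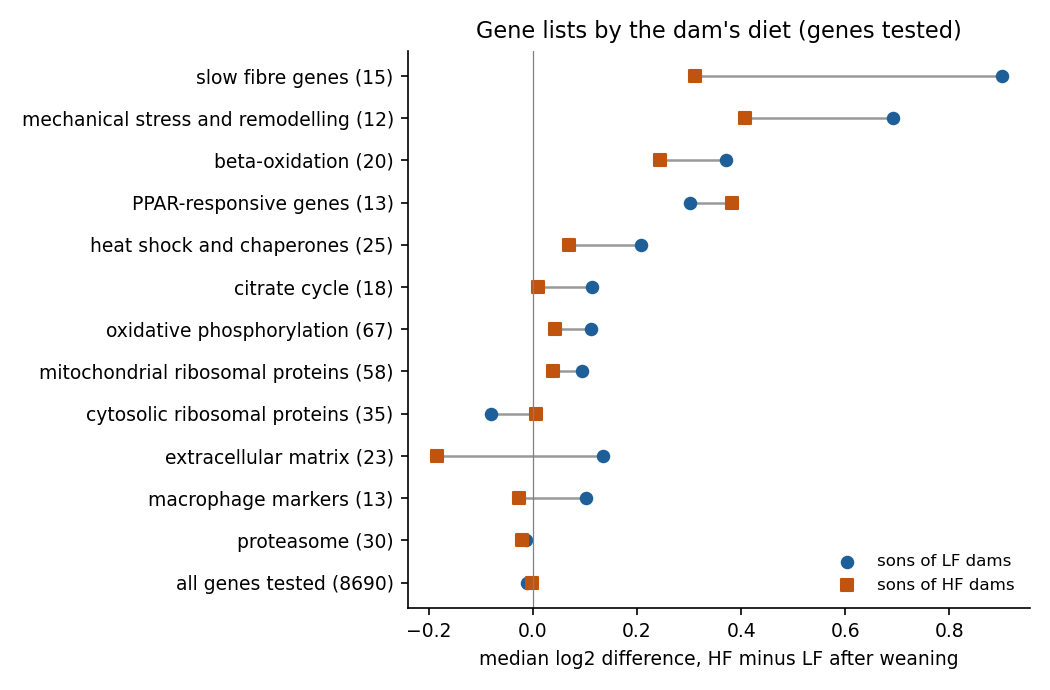
For 12 gene lists and for all genes tested, the median log2 difference between HF and LF after weaning is shown in sons of LF dams (circles) and in sons of HF dams (squares), with the number of genes tested in brackets. The medians of the extracellular matrix list are 0.13 and -0.19, and those of the slow fibre list 0.90 and 0.31.

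The extracellular matrix list had the most members with a small p. Of 31 genes listed, 23 were tested; all 23 had a negative interaction, against 47.3% of all genes, and 11 were at an unadjusted p below 0.05, against 2.54%. The median was 0.13 in sons of LF dams, -0.19 in sons of HF dams and -0.34 for the interaction. Besides Mfap5, Eln, Col3a1 and Col1a2, these 11 were the fibrillar collagen Col5a1 (-0.54 ± 0.17), the microfibrillar collagens Col6a1 (-0.43, and -0.42 and -0.11 on others) and Col6a2 (-0.41), the basement membrane collagens Col4a2 (-0.39) and Col15a1 (-0.24), the crosslinking enzyme Loxl1 (-0.35) and the matrix glycoprotein Sparc (-0.39, and -0.22 on another). None passed adjustment over all probes (adjusted p = 0.908 for each), and the genes of 1 tissue component move together between samples, so that 11 members are not 11 separate results.

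The size of the matrix values depended on the arrays used. The score of the list (mean log2 deviation over its 23 genes) was, in sons of LF dams, -0.04 ± 0.15 (SD, n = 10) on LF and 0.10 ± 0.25 on HF. In sons of HF dams it was 0.08 ± 0.15 on LF and -0.14 ± 0.20 on HF, and the groups overlapped. The macrophage-high LF_HF replicate 6 had the highest score, 0.72, and the next LF_HF array 0.25. Without it the median interaction was -0.26 with 9 members at an unadjusted p below 0.05, and with LF_LF replicates 2 and 5 also left out it was -0.27 with 8. Within array set 1 it was -0.36 with 12 members and within set 2 -0.15 with 1. In set 1 the 5 HF_HF arrays had scores from -0.37 to -0.17 and the 6 HF_LF arrays from -0.003 to 0.26, while in set 2 these groups overlapped.

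Markers of other cells beside the fibres moved to a lesser degree. Of 13 macrophage markers tested (17 listed) 12 were negative with a median of -0.17, and 0 were at an unadjusted p below 0.05. The group means of the macrophage score were -0.03, 0.07, 0.00 and -0.05 from LF_LF to HF_HF. Of 7 tendon markers tested (9 listed) all 7 were negative, with a median of -0.11 and 0 members at that level. Endothelial markers had a median of -0.04 (16 genes, with the transcription factor Sox17 at -0.21) and white adipocyte markers one of 0.16 (8 genes), while 2 of 16 lymphocyte markers were bright enough to be tested. The part of connective tissue or immune cells in the matrix values was not tested. With the slow fibre score as a covariate the matrix median was -0.34, as without it.

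**Figure D5:**
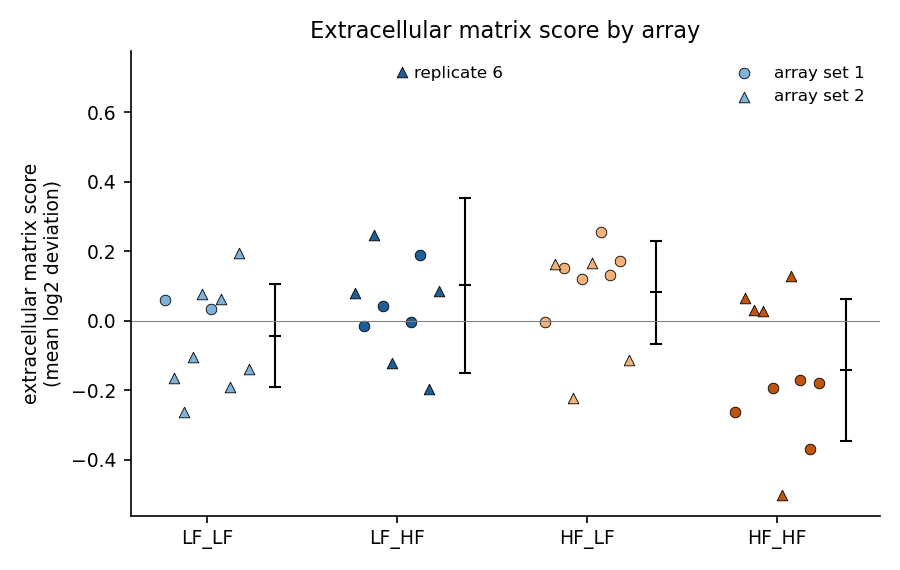
The mean log2 deviation of 23 extracellular matrix genes is plotted for each array by group, with circles for array set 1 and triangles for set 2; bars give the mean and SD of 10 arrays. LF_HF replicate 6 lies at 0.72, and the circles of HF_HF lie below those of HF_LF.

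Slow fibre genes had a large median interaction that varied with the arrays and the model used. The median response was 0.90 in sons of LF dams and 0.31 in sons of HF dams over 15 genes, the median interaction was -0.55, and 15 of 15 were negative. Only 2 (13.3%, against 2.54% of all genes) were at an unadjusted p below 0.05. These were Casq2, the calsequestrin of slow and cardiac muscle (-0.49 ± 0.17), and Fhl2, a LIM protein (-0.31 ± 0.11). The slow fibre score was -0.34 ± 0.78 (SD, n = 10) on LF and 0.51 ± 0.50 on HF in sons of LF dams, and -0.23 ± 0.89 on LF and 0.06 ± 0.54 on HF in sons of HF dams, with wide overlap between groups. Within array set 1 the median interaction was -0.08 and within set 2 -0.73. It was -0.29 with cage as a fixed term, below the -0.31 of the matrix list in size, and ran from -1.05 to -0.29 when single arrays or cages were left out. In the fast fibre list, the tropomyosin Tpm1 was at -0.26 ± 0.09, beside a median of 0.06 for the 15 fast fibre genes.

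Cytosolic ribosomal proteins had small positive interactions. Of 35 genes tested (55 listed), 8 were positive at an unadjusted p below 0.05, against 2.59% of all genes, and 0 negative, with medians of -0.08 in sons of LF dams, 0.01 in sons of HF dams and 0.08 for the interaction. The largest of the 8 were Rps6 (0.31 ± 0.11) and Rpl23 (0.24 ± 0.08, and 0.07 and 0.02 on other probes), with Rpl24 and Rps14 at 0.15 each. Within array set 1 the median was 0.03 with 0 members at that level, and within set 2 0.11 with 6. Such genes have many processed copies in the genome, and a probe may read some of them.

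In the list of mechanical stress and remodelling, with medians of 0.69 and 0.41 over 12 genes, Xirp1 alone was at an unadjusted p below 0.05. Its median interaction of -0.23 (11 of 12 negative) was 0.02 with the slow fibre score as a covariate, with 0 members at that level. It was 0.07 within array set 1, and ran from -0.55 to -0.05 when single arrays or cages were left out. Signalling lists gave scattered members at an unadjusted p below 0.05, in both directions. Some lists leaned in sign, with 14 of 18 glucocorticoid-responsive genes negative and 14 of 18 atrophy and FoxO genes positive. Of all genes 47.3% were negative. In the insulin list the kinases Gsk3b (0.25 ± 0.10) and Akt2 (0.21 ± 0.09) were positive and Grb10 negative. Positive members of metabolic lists were the glycolytic regulator Pfkfb3 (0.27 ± 0.10), Pdp2, which activates pyruvate dehydrogenase (0.41 ± 0.16), Dgat1, which completes triglyceride synthesis (0.22 ± 0.09), and the branched-chain enzyme Dbt (0.22 ± 0.09). The lipid droplet protein Plin3 (-0.26 ± 0.11), the oxidoreductase Txnrd1 (-0.27 ± 0.11, and -0.03 within array set 1) and the endoplasmic reticulum isomerase Pdia6 (-0.23 ± 0.09) were negative. The probes of Pfkfb3, Dgat1 and Txnrd1 were dim beside a median of all intensities of 75.7. Their group means were 78.67 to 89.57, 79.25 to 86.97 and 82.09 to 92.92. The 27 other lists with at least 5 genes tested had medians between -0.13 (glucocorticoid-responsive genes) and 0.09 (lipid droplets and lipolysis), with at most 2 members in either direction at an unadjusted p below 0.05.

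The animals' own measures were put through the same contrast. Weight at 3 weeks, before the sons' diets differed, averaged 9.57 and 9.18 g in the later LF and HF sons of LF dams, and 10.9 and 11.6 g in those of HF dams (SD 0.84 to 1.25 g, n = 10 each). The later weight was 5.63 g greater on HF than on LF where the dam ate LF and 6.78 g greater where the dam ate HF, an interaction of 1.15 ± 1.04 g (SE; permutation p = 0.268). For gain between these weights it was 0.07 ± 0.84 g, on differences of 6.03 and 6.1 g (permutation p = 0.933). Body length gave the smallest p, with differences of 2.6 and 4.62 mm and an interaction of 2.02 ± 1.13 mm over 38 mice (permutation p = 0.0748). Glucose differed by 15.7 mg/dl in sons of LF dams and by -5.5 mg/dl in sons of HF dams, an interaction of -21.2 ± 21.2 mg/dl (permutation p = 0.31). Weight at 3 weeks gave 1.08 ± 0.64 g (permutation p = 0.0927). Within the 5 cages that held both diets the direction turned for length (-1.11 mm), later weight (-1.38 g), gain (-1.34 g) and weight at 3 weeks (-0.0436 g), in 2 cages of LF dams and 3 of HF dams, where the smallest possible exact p is 0.1. None of the 5 measures passed adjustment (adjusted permutation p of 0.232 to 0.933).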

How the data were processed

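Total RNA of thigh muscle was labelled as biotinylated cRNA and hybridised to Illumina MouseRef-8 v2.0 beadchips. The deposited intensities had been quantile-normalised by the authors over the 40 muscle arrays and are on a linear scale; the submitters' processing notes name BeadStudio, whose version is not given in the sources used here. The lowest intensity was 47.2, the median 75.7 and the highest 32250.5, so a background remains in the values and compresses fold changes of dim probes. The number of arrays limits the precision. Gene symbols are those of the platform annotation, checked by gene identifier against a GRCm38.p6 gene table that served for names only: 23978 probes had 1 symbol, 0 had several and 1719 had none, and 0 symbols changed. The table holds 0 other columns of sample values.

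Log2 intensities of the 12467 tested probes were fitted with limma 3.58.1 (R 4.3.3; lmFit, contrasts.fit, and eBayes with an intensity trend) as 4 group means on all 40 arrays, and p-values, all two-sided, were adjusted over these probes (Benjamini-Hochberg). A call is an adjusted p below 0.05. The fit treats mice of 1 cage as independent. The pairs of groups were also fitted on their own 20 arrays. Array sets were read from the largest gap on the first principal component (20.8% of variance) of the 13230 untested probes. A list uses the brightest probe of each gene. Body measures were tested by permuting residuals of the additive model (100000 resamples; numpy 2.4.6, pandas 2.3.3, Python 3.11.15). The fit was tested on simulated data.

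Named genes are the 12 smallest p-values of the interaction in each direction, the 5 largest values in each direction at an unadjusted p below 0.05, the 10 smallest adjusted p-values of each post-weaning comparison, and up to 4 members per list at an unadjusted p below 0.05; further matrix, oxidation and chaperone members were added after their values had been seen. The members, the 45 lists and the tests were chosen with earlier results of these data known. Replicate numbers only name animals. Alternatives covered the filter, an offset of 50, a background subtraction (percentile 5 removed, 16 added), the variance model, array weights, cage, array set, slow fibre score, body weight, and leaving out arrays or cages; the values within each array set, without LF_HF replicate 6 alone and on separate pairs of groups were chosen after seeing the data.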

Additional observations from a re-analysis of the deposited data

Results flagged for a closer look

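A single array lay apart from the other 9 of its group in 14 of the 224 groups of values examined (gap to the next array over the range of the group, above 0.466), where chance gives about 1 in 20. LF_HF replicate 6 was the highest of its group in the macrophage score (ratio 0.729; 1.37 against 0.15 in the next array), the lymphocyte score (0.552), the extracellular matrix score (0.515) and Mfap5 (0.481; log2 intensity 9.79 against 9.10). Mfap5 had an interaction of -0.58 without that array. HF_LF replicate 1 was the highest of its group in Tppp3 (0.589; log2 intensity 8.66 against 8.28). The type I collagen Col1a2 was highest in HF_LF replicate 6 (0.584) and the probe of Ece1 in HF_LF replicate 10 (0.482). HF_HF replicate 5 was the lowest of its group in the Actb probe ILMN_2588055 (0.503) and in Akna (0.499), HF_HF replicate 7 in Ccl21a (0.58), and HF_HF replicate 1 was the highest in the lymphocyte score (0.506). LF_HF replicate 5 was the lowest in Pex11a (0.504) and Dcakd (0.47), and LF_LF replicate 5 in Nudt8 (0.491).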

How the results depend on the processing

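No paired analysis was possible because the replicate numbers follow accession order and only name animals; this concerns replicate numbers alone, and sons sharing a cage were compared through cage as a fixed term. The interaction stayed at 0 calls except with cage as a fixed term (2, both Tfrc probes) and in 2 of the leave-one-out fits (range 0 to 1; Tppp3 without LF_HF replicate 1 or cage 11). Its probes at an unadjusted p below 0.05 were 647 of 12467 (5.19%) in the main fit and 1156 of 25697 (4.50%) with no filter. Of 12467 probes they were 1108 (8.89%) with cage as a fixed term, 404 (3.24%) within array set 1 and 969 (7.77%) within set 2. Leave-one-out gave 436 to 868. With cage as a random block the post-weaning calls were 440 in sons of LF dams and 87 in sons of HF dams, against 444 and 85 in the main fit. Other settings that moved the post-weaning counts less than those below are not listed. The post-weaning calls in sons of LF dams were 259 with no filter, 829 with array weights, 96 with cage as a fixed term, 22 on cage means, 100 with the slow fibre covariate, 0 with body weight as a covariate, 0 within set 1, 142 within set 2 and 267 when LF_LF replicates 2 and 5 and LF_HF replicate 6, the immune-high arrays, were left out. Leave-one-out gave 70 (cage 11) to 518, with 92 without cage 4, 200 without cage 6, 252 without LF_LF replicate 4 and 274 without LF_HF replicate 8. In sons of HF dams they were 7 on cage means, 137 with array set as a term, 0 with body weight, 16 within set 1, 0 within set 2 and 45 on the pair's own arrays. Leave-one-out gave 6 (cage 23) to 131 (cage 1), with 33 without cage 10, 48 without HF_HF replicate 4 or HF_LF replicate 5 and 129 without HF_LF replicate 10. Later weights on LF reached 26.83 g and those on HF began at 27.2 g, without overlap. The fits with body weight therefore cannot tell the post-weaning diet from weight. Maternal calls in sons on LF were 1 on cage means, 0 with array set as a term or within either set, 4 without the immune-high arrays and 2 on the pair's own arrays (leave-one-out 0 to 12). In sons on HF they were 9 with the slow fibre covariate and 0 with array weights, on cage means, within either set, without LF_HF replicate 6 alone or all immune-high arrays, and on the pair's own arrays (leave-one-out 0 to 68, the latter without cage 14). With cage as a fixed term maternal values cannot be fitted. The matrix median was -0.15 within set 2 (leave-one-out -0.41 to -0.26).

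Some interactions changed sign. That of Ech1 (-0.09 in the main fit) was 0.00533 with cage as a fixed term and 0.0269 with the slow fibre covariate. Within set 1 the interaction was 0.0558 for Fabp3 (main fit -0.25), -0.0319 for Cyp51 (0.16) and 0.0429 for Cox7b (-0.59). Within set 2 it was 0.0405 for Pex11a (main fit -0.03), -0.21 for Acot1 (0.09) and -0.0321 for Acot2 (0.12). Leave-one-out values of Pex11a ran from -0.0769 (LF_HF replicate 5) to 0.0396 (cage 4), positive also without cage 20, and those of Acot1 from -0.18 (cage 23) to 0.297 (cage 20), negative also without cage 8. On differences within the 5 cages with both diets (smallest possible exact p 0.1), the interaction was -0.0436 g for weight at 3 weeks, -1.38 g for later weight, -1.34 g for gain and -1.11 mm for length, with exact p of 1, 0.3, 0.2 and 0.5. On cage means gain was at -0.20 g. The cause of these changes was not tested. Few cages per group limit all of them, and dim probes carry a remaining background.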
